A study of Rattus norvegicus with 6 samples.

Results

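The mature microRNAs described as responsive to oxygen supply, rno-miR-210-3p, rno-miR-210-5p, rno-miR-199a-5p, rno-miR-199a-3p and rno-miR-214-3p, were followed in arterial and venous rat plasma, because blood on the 2 sides of the circulation differs in its oxygen content. These 5 members were taken by name from the 758 rat microRNAs of the array, and all 5 were found. The samples came from 3 untreated male Sprague-Dawley rats aged 10 weeks. From each rat 3 mL of blood was drawn from the abdominal aorta (arterial plasma) and 3 mL from the postcava (venous plasma), so that the 2 groups hold 3 samples each and share their animals. The plasma was spun, passed through a 0.22 μm filter and extracted with a kit for serum and plasma RNA, and each of the 6 RNA samples was hybridized to 1 single-colour Agilent array. No oxygen value was measured in these samples, and postcaval plasma was the single venous site, so that the comparison is between these 2 vessels of healthy animals.

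In most cell types miR-210 is the microRNA most regularly induced under low oxygen, as a direct product of the hypoxia-inducible factor, and it represses genes of mitochondrial iron-sulphur assembly and respiration. miR-199a-5p is known in heart muscle as a repressor of the hypoxia-inducible factor itself, and its level there falls when oxygen is short. miR-214 is made from the same primary transcript as miR-199a and is known in the heart for limiting calcium overload after ischaemia. Plasma holds such RNAs in vesicles and in protein complexes released by blood cells, the vessel wall and other tissues.

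The mature sequences are shown with the seed, bases 2 to 8, in capitals, because the seed sets which messages a microRNA pairs with. They were taken from RefSeq (rat assembly GRCr8), where all 5 names matched.
rno-miR-210-5p: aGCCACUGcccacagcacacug
rno-miR-210-3p: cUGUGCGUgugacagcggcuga
rno-miR-199a-5p: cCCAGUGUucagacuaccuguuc
rno-miR-199a-3p: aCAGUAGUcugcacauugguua
rno-miR-214-3p: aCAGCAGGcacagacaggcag
The 5 seeds are all different, and none of them is shared with another mature rat microRNA of that RefSeq table. The table held 685 of the 758 array names, so that a seed shared with one of the remaining names would be missed. The closest pair is rno-miR-199a-3p and rno-miR-214-3p, which have 5 of 7 seed bases in common. rno-miR-210-5p and rno-miR-210-3p lie on the minus strand at chr1:205755984-205756005 and chr1:205755946-205755967, in the gene Mir210. rno-miR-199a-5p and rno-miR-199a-3p lie on the plus strand at chr13:77116255-77116277 and chr13:77116294-77116315, in the gene Mir199a2, and rno-miR-214-3p lies on the same strand at chr13:77121713-77121733, in the gene Mir214. Mir214 starts 5329 bases beyond the end of mature rno-miR-199a-3p, and both genes lie within Dnm3, a dynamin gene. Mir210 lies within the long noncoding RNA gene LOC102553043.

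Both hairpins with a listed sequence are shown next, with the mature arms in capitals, because the arms of a hairpin gave different readings on the arrays.
Mir210: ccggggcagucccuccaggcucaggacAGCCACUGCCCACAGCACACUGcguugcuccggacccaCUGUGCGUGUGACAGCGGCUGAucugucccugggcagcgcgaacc
Mir214: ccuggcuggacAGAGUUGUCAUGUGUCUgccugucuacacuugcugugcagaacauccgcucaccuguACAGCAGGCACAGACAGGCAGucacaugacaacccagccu
The first 17 capital bases of Mir214 are rno-miR-214-5p, and the later ones are rno-miR-214-3p. A further microRNA, rno-miR-3120, is annotated on the opposite strand of Mir214, and the 2 hairpins overlap by 106 bases.

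Each member is covered by 2 probes with 8 spots each, or 16 spots on an array. Feature Extraction called between 137 and 175 of the 758 microRNAs detected on an array, 126 of them (16.6%) on all 6 arrays and 557 on none. The arrays of rats 1 and 2 shared slide 1 and those of rat 3 were on slide 2. Each slide thus held both plasma types, but rat 3 and slide 2 cannot be told apart. Before normalization, the median intensity of the 126 microRNAs was higher in arterial plasma in rat 1 (35.4 against 21.8) and rat 3 (30.1 against 17.2) and lower in rat 2 (41.8 against 52.9). No spot of the members was saturated.

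rno-miR-214-3p and rno-miR-199a-3p were detected on all 6 arrays, rno-miR-199a-5p in both samples of rat 2, rno-miR-210-3p in the venous plasma of rat 2, and rno-miR-210-5p in no sample. Across the 6 arrays, 96 of 96 spots of rno-miR-214-3p were well above background, against 83 of rno-miR-199a-3p, 16 of rno-miR-199a-5p, 2 of rno-miR-210-3p and 0 of rno-miR-210-5p. Both arms of miR-210 were thus at or near background in these plasma samples, while rno-miR-199a-3p and rno-miR-214-3p could be measured in every one.

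**Figure D1:**
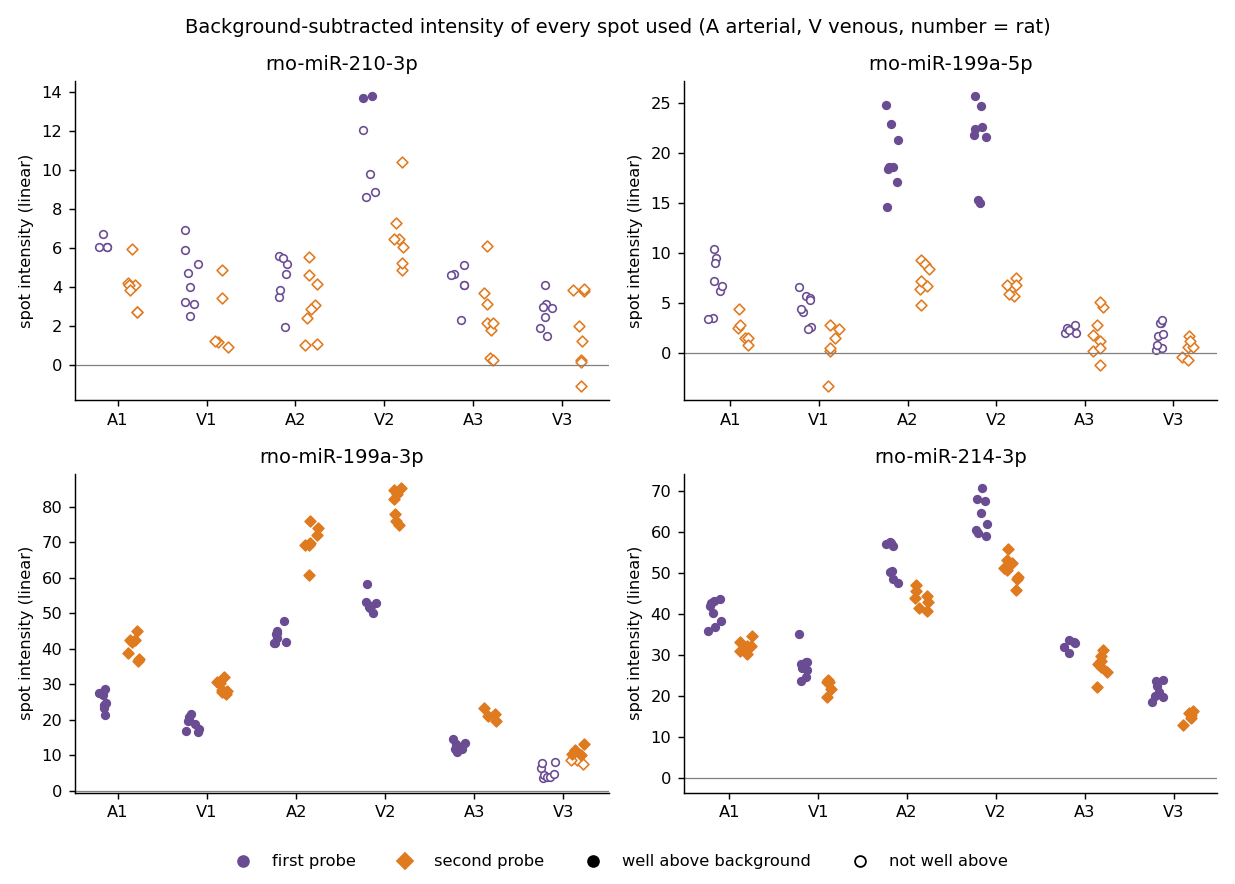
Background-subtracted intensity (linear) of every spot not flagged as an outlier for rno-miR-210-3p, rno-miR-199a-5p, rno-miR-199a-3p and rno-miR-214-3p on the 6 arrays (A arterial, V venous, number = rat), with 1 symbol for each of the 2 probes and filled symbols for spots well above background. All used spots of rno-miR-214-3p are filled, those of rno-miR-199a-5p are filled for 1 probe in rat 2, and rno-miR-210-3p has 2 filled spots, both in the venous plasma of rat 2.

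The values compared next are log2 intensities after quantile normalization of the 6 arrays, with the probes of a microRNA averaged and values under an intensity of 1 set to 1. Differences are arterial minus venous on this scale. They were tested with limma over all 758 microRNAs with the rat as a block, first at the unadjusted cutoff of 0.025 that the study used, then at 0.05 after adjustment by Benjamini-Hochberg. Of the 5 members, 0 passed the cutoff in limma, 0 had an unadjusted p under 0.05, and 0 passed the methods' t-test. The background is also low, since 6 of 758 microRNAs (0.792%) passed the cutoff in limma and none (0%) passed the adjusted p. However, 557 of the 758 were detected on no array. In a fit over the 126 microRNAs detected on every array, 3 (2.38%) passed the cutoff. Over all 758, 12 had an unadjusted limma p under 0.05 and 4 passed the methods' t-test. At such shares a count of 0 among 5 members says little about them.

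Of the 5 members, 0 had a difference of the same sign in all 3 rats, where 48 of 758 microRNAs (6.33%) and 25 of the 126 detected on every array (19.8%) had one. The median difference over the members was 0.041, the value of rno-miR-210-5p, beside 0 over all 758. On no array were rno-miR-210-5p and 557 of the 758 detected, so that these medians rest on signals at or near background. Over the 2 members detected on every array the median was 0.033, beside -0.0040 over the 126.

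**Figure D2:**
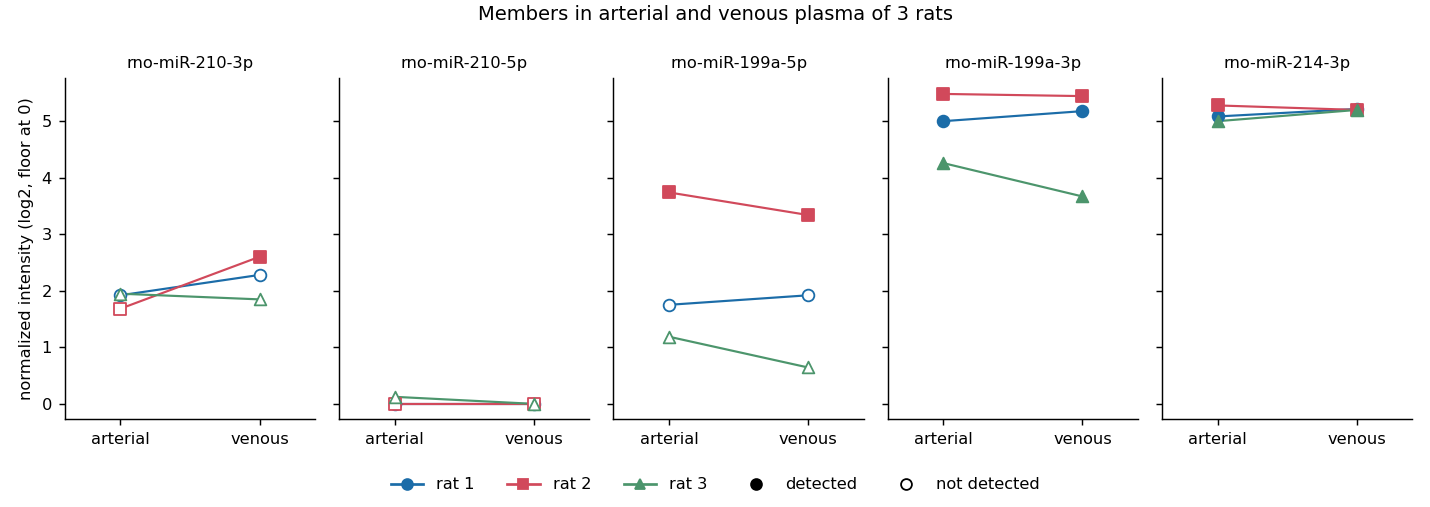
Quantile-normalized log2 intensity of each member in arterial and venous plasma, with 1 line for each rat and filled symbols where Feature Extraction called the microRNA detected. Heights are to be read within a panel, since panels hold different probes. The lines of rno-miR-199a-3p keep the order rat 2, rat 1, rat 3 on both sides, the filled symbols of rno-miR-199a-5p belong to rat 2, and those of rno-miR-214-3p lie between 5.00 and 5.28.

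rno-miR-210-3p, the guide arm of the miR-210 hairpin, had normalized log2 intensities of 1.92, 1.68 and 1.95 in arterial plasma (rats 1, 2 and 3) and of 2.28, 2.60 and 1.85 in venous plasma. The venous values were above the arterial ones in rats 1 and 2 and below in rat 3, and the 2 groups overlapped. The arterial plasma gave 1.85 ± 0.15 (SD, n = 3) and the venous plasma 2.24 ± 0.38 (SD, n = 3).

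The mean difference of rno-miR-210-3p was -0.39 with a standard error of 0.281 and a 95% interval of -1.5 to 0.72 (adjusted p = 1 from limma). In the exact permutation test within rats the two-sided p was 0.5, where 0.25 is the smallest that 3 pairs allow. The microRNA was not well above background on any arterial array and on 1 of 3 venous arrays. Its venous mean of 2.24 lies below the level that spots well above background reach on the arterial arrays, which began at 2.61 to 3.54, so that no fold is given.

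The single detected reading of rno-miR-210-3p, in the venous plasma of rat 2, was a total gene signal of 6.07 with an error of 1.61. On that array its background-subtracted intensity was 8.92, against 2.23 to 5.08 on the other arrays. This was also the array with the brightest detected microRNAs, and 7 microRNAs in all were detected on it and on no other. The dimmer array of arterial plasma of rat 1 had 8 such microRNAs, and the remaining arrays had 0 to 4. In the venous plasma of rat 2 the probes of rno-miR-210-3p had means of 11.2 and 6.69, with spot-to-spot coefficients of variation of 21.1% and 27.4%. The 2 spots well above background both belonged to the first of these probes.

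rno-miR-210-5p, the other arm of that hairpin, had background-subtracted intensities of -0.169, -0.426 and 1.12 in arterial plasma (rats 1, 2 and 3) and of -0.803, -1.15 and 0.509 in venous plasma. Both groups straddled zero. After normalization 5 of its 6 values were at the floor, and the 1 above it was the arterial value of rat 3, which gave a mean of 0.041 (standard error 0.0395, limma adjusted p = 1). At this signal no difference between arterial and venous plasma was detectable.

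rno-miR-199a-5p, the arm known to target the hypoxia-inducible factor, had normalized log2 intensities of 1.75, 3.74 and 1.19 in arterial plasma (rats 1, 2 and 3) and of 1.92, 3.34 and 0.64 in venous plasma. Rat 2, the animal in which it was detected, was the highest on both sides. The 4 readings of rats 1 and 3 were not well above background, so that their order is not read. The arterial plasma gave 2.23 ± 1.34 (SD, n = 3) and the venous plasma 1.97 ± 1.35 (SD, n = 3).

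For rno-miR-199a-5p the differences in rats 1, 2 and 3 were -0.17, 0.40 and 0.54. Their average of 0.26 had a standard error of 0.208 and a 95% interval of -0.56 to 1.08 (adjusted p = 1 from limma, exact permutation p = 0.5 within rats). In rat 2, where it was detected, its total gene signal exceeded the error by 6.08 times in arterial and 6.09 times in venous plasma. Its pattern of detection, on both arrays of rat 2 and on no other, was shared by 5 of the 758 microRNAs, itself included. Its probes differed, since 16 of the 48 spots of the first probe over all arrays were well above background and 0 of the 48 spots of the second.

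rno-miR-199a-3p, the other arm of that hairpin, had normalized log2 intensities of 5.00, 5.48 and 4.26 in arterial plasma (rats 1, 2 and 3) and of 5.18, 5.44 and 3.67 in venous plasma. The order of the rats was rat 2, rat 1, rat 3 in both plasma types, and the groups overlapped. The arterial plasma gave 4.91 ± 0.62 (SD, n = 3) and the venous plasma 4.76 ± 0.96 (SD, n = 3).

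For rno-miR-199a-3p the differences in rats 1, 2 and 3 were -0.18, 0.038 and 0.59. They averaged 0.15, with a standard error of 0.218 and a 95% interval of -0.71 to 1.01 (adjusted p = 1 from limma, exact permutation p = 0.75 within rats). The rats on the first slide gave values near 0 on either side, and the positive mean rests on rat 3, without which it was -0.070. The venous sample of rat 3 was also its weakest reading, with a total gene signal 4.67 times the error and 4 of 16 spots well above background, against 8.59 to 12.8 times and at least 15 spots on the other arrays.

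rno-miR-214-3p had normalized log2 intensities of 5.08, 5.28 and 5.00 in arterial plasma (rats 1, 2 and 3) and of 5.22, 5.20 and 5.20 in venous plasma. All 6 values lay within 0.28 of each other, and the arterial and venous ranges overlapped. The equal venous values of rats 2 and 3 come from an equal rank on both arrays, since quantile normalization gives equal ranks equal values. The arterial plasma gave 5.12 ± 0.14 (SD, n = 3) and the venous plasma 5.20 ± 0.0098 (SD, n = 3).

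For rno-miR-214-3p the differences in rats 1, 2 and 3 were -0.13, 0.079 and -0.20. They averaged -0.084, with a standard error of 0.0800 and a 95% interval of -0.40 to 0.23 (adjusted p = 1 from limma, exact permutation p = 0.5 within rats). With limma fitted over the 126 microRNAs detected on every array, which steadies the estimate of the spread, the standard error was 0.175, the interval -0.53 to 0.36 and the adjusted p 0.969. Of those 126, 3 (2.38%) passed the cutoff of 0.025 in that fit, and rno-miR-199a-3p did not either, with an interval of -0.41 to 0.71 (adjusted p = 0.899 from limma). These intervals include 0 and reach to 0.71 for rno-miR-199a-3p and to -0.53 for rno-miR-214-3p.

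**Figure D3:**
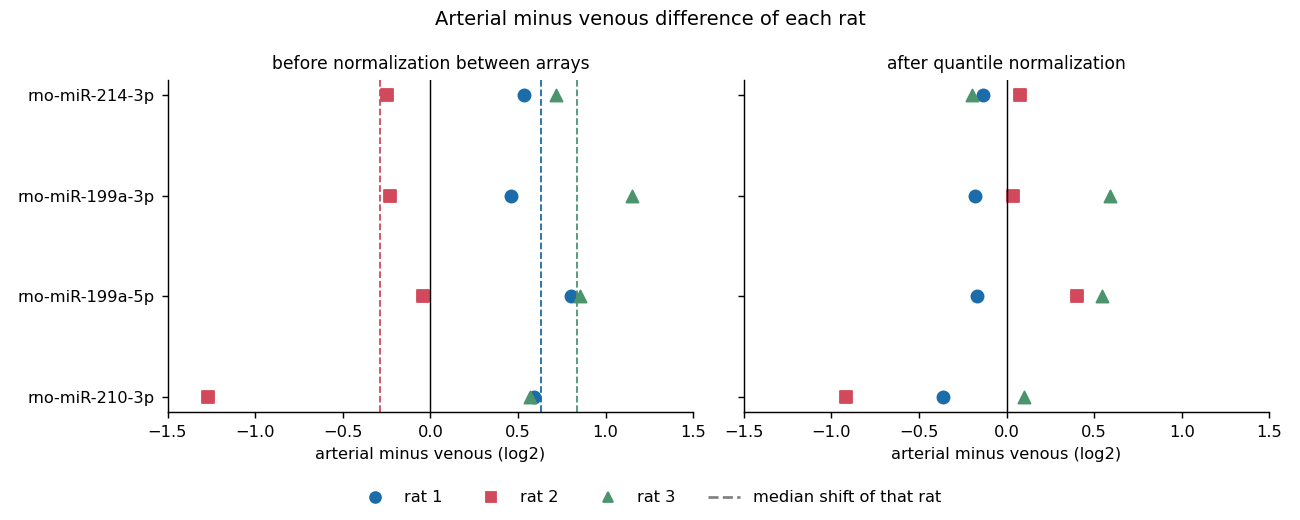
Arterial minus venous difference (log2) of the 4 members with signal above the floor in every sample, 1 symbol for each rat, before (left) and after (right) quantile normalization. Dashed lines mark the median difference of the 126 microRNAs detected on every array in each rat, at 0.63, -0.29 and 0.84 in rats 1, 2 and 3. Before normalization the symbols of rno-miR-214-3p lie close to these lines, and afterwards they lie between -0.20 and 0.079.

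The sign of the difference for rno-miR-214-3p depended on scaling between arrays. Without any scaling the difference was 0.34, while the median of the 126 microRNAs moved by 0.40 in the same direction. In single rats the unnormalized difference of rno-miR-214-3p was 0.54, -0.25 and 0.72, and the median of the 126 was 0.63, -0.29 and 0.84, so that relative to this median it was -0.097, 0.044 and -0.12. rno-miR-199a-3p relative to the same median was -0.17, 0.059 and 0.32 in rats 1, 2 and 3. rno-miR-210-3p was -0.044, -0.98 and -0.27, but 5 of its 6 readings were not well above background.

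Both probes of a microRNA gave the same sign of these unnormalized differences in each rat. For rno-miR-199a-3p they were 0.44 and 0.48 in rat 1, -0.27 and -0.20 in rat 2 and 1.22 and 1.11 in rat 3. For rno-miR-214-3p they were 0.54 and 0.52 in rat 1, -0.27 and -0.22 in rat 2 and 0.60 and 0.87 in rat 3. The probes of rno-miR-214-3p lay farthest apart in rat 3. The spots of 1 probe on 1 array varied with a median coefficient of variation of 7.47% in both rno-miR-199a-3p and rno-miR-214-3p, with a highest value of 34.4% for rno-miR-199a-3p in the venous plasma of rat 3.

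The 2 members detected on every array differed in how much of their variation lay between rats. For rno-miR-199a-3p the rat means of the log2 intensity were 5.09, 5.46 and 3.96, a range of 1.5, and 92.7% of the sum of squares of its 6 values lay between rats. For rno-miR-214-3p the range was 0.14 and the share 38.5%. Over the 126 microRNAs detected on every array the median range was 0.71 and the median share 72.7%.

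Among these 126, 13 had a wider range between rats than rno-miR-199a-3p and 3 had a narrower range than rno-miR-214-3p. The order rat 2, rat 1, rat 3 in both plasma types, seen in rno-miR-199a-3p, was found in 7 of the 126 (5.56%). The size of the mean arterial minus venous difference was below the median of 0.17 over the 126 for both rno-miR-199a-3p (0.15) and rno-miR-214-3p (0.084). No test between rats was made, and for rat 3 the animal and the slide cannot be told apart.

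**Figure D4:**
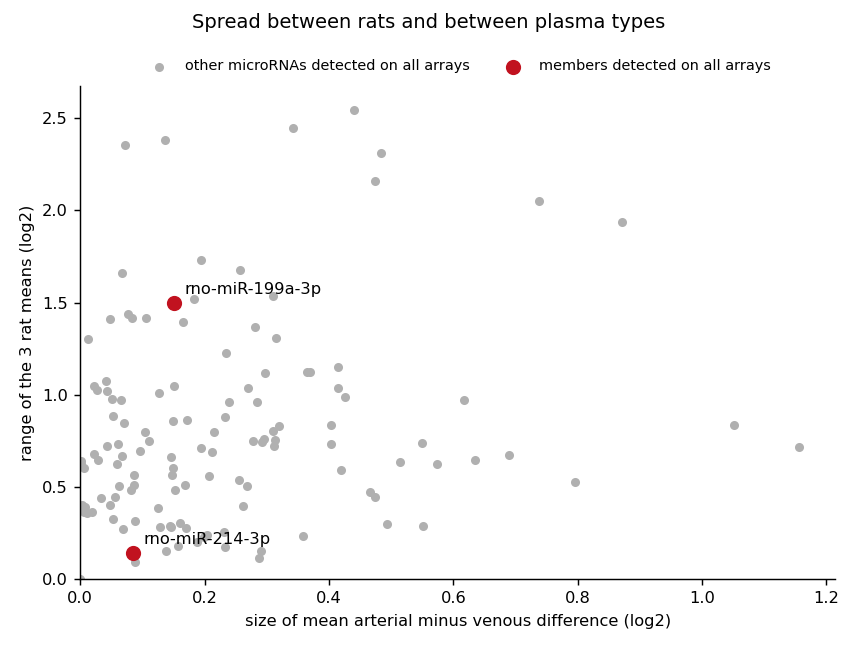
Range of the 3 rat means against the size of the mean arterial minus venous difference (both log2) for the 126 microRNAs detected on all arrays, with the 2 such members in red. rno-miR-199a-3p lies high (1.5) and rno-miR-214-3p low (0.14) on the axis of rats, and both lie at small differences between plasma types (0.15 and 0.084).

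Over the 6 arrays rno-miR-214-3p had a Pearson correlation of 0.417 with rno-miR-199a-3p, from the same locus. No correlation is given for rno-miR-199a-5p, which was not well above background on 4 of the 6 arrays. These values describe 6 arrays from 3 rats that share animals and slides, and no p is given. Among the other microRNAs detected on every array, those most like rno-miR-199a-3p over the 6 arrays were rno-miR-143-3p, a microRNA of smooth muscle (Pearson 0.951), rno-miR-30a-5p (0.937) and rno-miR-99a-5p (0.937). For rno-miR-214-3p they were rno-miR-30b-5p (0.682), rno-miR-378b (0.659) and rno-miR-30a-5p (0.648), which is a looser likeness over a narrow range of values.

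rno-miR-143-3p had log2 intensities of 5.66, 6.46 and 4.46 in arterial plasma (rats 1, 2 and 3) and of 5.34, 5.57 and 3.47 in venous plasma. It shares with rno-miR-199a-3p the order of the rats on both sides. Its arterial minus venous difference was 0.33, 0.89 and 1.00 in the 3 rats, where rno-miR-199a-3p had -0.18, 0.038 and 0.59.

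The other products of the miR-214 locus on the array were not detected in any sample. rno-miR-214-5p, the other arm of the hairpin shown above, had intensities between -1.39 and -0.132, and rno-miR-3120, from the opposite strand, between -1.20 and -0.353, with 0 of 96 spots well above background for each. Both lay under the floor of 1 on every array, so that for the Mir214 hairpin the measured signal came from the 3p arm.

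A list of 19 other microRNAs described as responsive to oxygen was set beside the members. Of these, 14 were detected on all arrays and 2 on none (rno-miR-181c-5p and rno-miR-322-5p). In limma 0 of the 19 passed the cutoff of 0.025 in either direction and 0 had an unadjusted p under 0.05, and the methods' t-test called 0. Over all 758 microRNAs these counts were also low, at 6, 12 and 4. The median difference was -0.019 over the list and -0.022 over its 14 detected members, beside -0.0040 over all 126 detected on every array.

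Within this list rno-miR-17-5p, of the miR-17-92 cluster, was the 1 microRNA with the same sign in all rats (1 of 14, or 7.14%, beside 19.8% of the 126). Its log2 difference was -0.16, -0.77 and -0.49 in rats 1, 2 and 3, with a mean of -0.47 (standard error 0.167, adjusted p = 1 from limma). The related rno-miR-20a-5p and rno-miR-20b-5p had means of -0.29 and -0.29, with positive values in rat 3. At the other end rno-miR-494-3p had a mean of 0.34, of which rat 3 gave 0.94 and rat 2 gave 0.

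Rats differed in the direction of the list. In rat 1, 13 of the 14 detected members had the higher value in venous plasma, and in rat 3, 12 of 14 had it in arterial plasma. Rat 2 had 5 higher in arterial plasma, 6 higher in venous plasma and 3 equal. Of all 126 microRNAs detected on every array, 76 were higher in venous plasma in rat 1 and 63 higher in arterial plasma in rat 3. rno-miR-199a-3p had the same signs as most of the list in rats 1 and 3, whereas rno-miR-214-3p was negative in both.

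**Figure D5:**
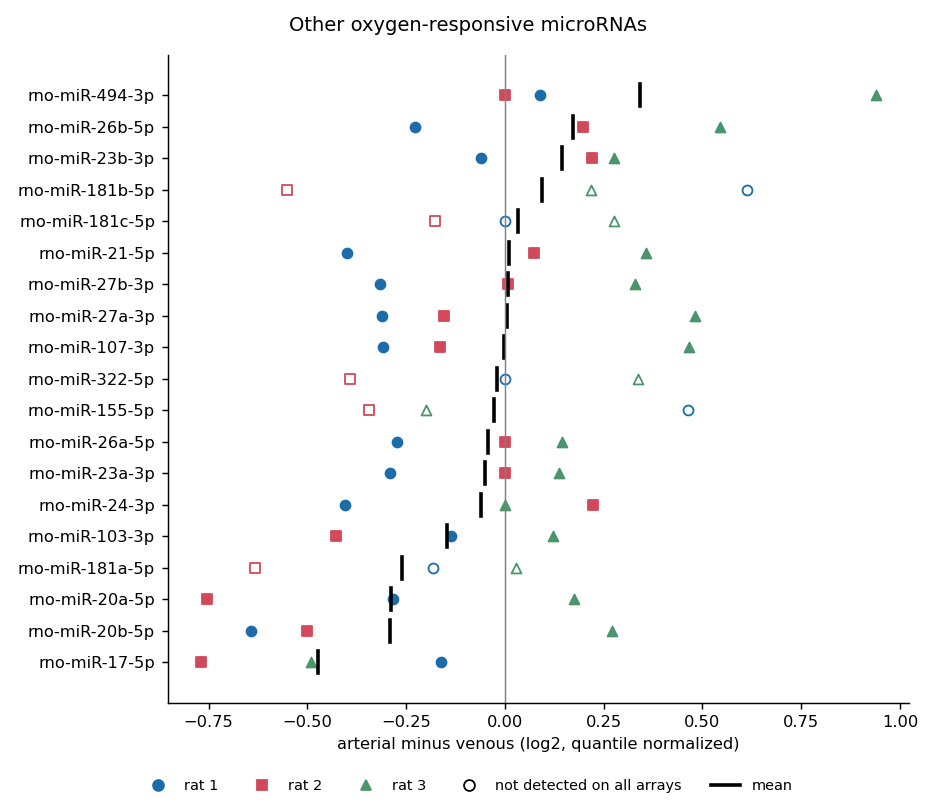
Arterial minus venous difference (log2, quantile normalized) of the 19 other oxygen-responsive microRNAs, with a symbol for each rat, a black bar for the mean and open symbols for microRNAs not detected on all arrays. Symbols of rat 3 lie mostly to the right of 0 and those of rat 1 mostly to the left, and rno-miR-17-5p at the bottom has all rats to the left (-0.16, -0.77 and -0.49).

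Markers of blood cells moved between samples as well. Of 7 erythrocyte microRNAs 6 were detected on all arrays, and rno-miR-144-5p was detected on none. The log2 of their summed intensity was 11.1 to 11.4 in arterial and 11 to 11.4 in venous plasma, with differences of -0.11, -0.24 and 0.36 in rats 1, 2 and 3. In the same rats the differences were -0.36, -0.92 and 0.10 for rno-miR-210-3p and -0.18, 0.038 and 0.59 for rno-miR-199a-3p. They were -0.17, 0.40 and 0.54 for rno-miR-199a-5p and -0.13, 0.079 and -0.20 for rno-miR-214-3p. Of the 6 detected erythrocyte microRNAs, 2 had the higher mean in arterial plasma, rno-miR-451-5p (0.26, with 0, 0 and 0.79 in the 3 rats) and rno-miR-144-3p (0.070). The other 4 had the higher mean in venous plasma, rno-miR-486 at -0.57, rno-miR-92a-3p at -0.19, rno-miR-16-5p at -0.15 and rno-miR-25-3p at -0.15, and the median over the 6 was -0.15.

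All 5 platelet and leukocyte microRNAs were detected on all arrays. Their summed log2 intensity was 9.0 to 9.91 in arterial and 9.40 to 9.84 in venous plasma, with differences of -0.39, -0.16 and 0.076 in the 3 rats. The part of blood cell RNA in the values of the members was not tested.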

How the data were processed

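Plasma microRNAs were measured on 6 single-colour Agilent rat arrays (12128 spots, 1806 probes, 758 microRNAs). The authors deposited Feature Extraction output as linear intensities. Its processed intensity is net of local background, and arrays were not scaled to each other. The software version is 11.0.1.1 in the submitters' processing notes and 10.7.3.1 in the file headers. The authors also deposited a table of linear intensities that they quantile normalized with GeneSpring, which ranks the probes of each array exactly as the median intensity, background included, of the first listed spot (Spearman 1 on all 6 arrays).

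Control spots and outlier spots (8.72 to 10.4% of an array) were left out, spots and then probes were averaged, quantile normalization was applied across arrays, a floor of 1 was set, and log2 values were used, which understates differences of dim microRNAs. Samples were grouped by their labels and paired by the replicate number in their titles, which was taken as the rat number. The study describes its arterial and venous samples as matched within rats. Deviations of the 2 samples of a rat from their group means correlated at 0.799, 0.686 and 0.635 in rats 1, 2 and 3. These values do not test the pairing, since samples of different rats were not compared and rat 3 was alone on slide 2. limma 3.58.1 in R 4.3.3 (lmFit, eBayes, two-sided, rat as block) was fitted over all 758 microRNAs, and the exact permutation tests and figures used Python 3.11.15. The methods' t-test is the study's paired test on the same values. The steps were tested on simulated data. The number of arrays limits the precision, and 1 sample of each plasma type came from each animal.

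The members, the lists and the rule for named microRNAs (members, products of the same locus, the 3 most like microRNAs, list members of 1 sign in all rats, marker lists) were chosen with earlier results of these data known. rno-miR-20a-5p, rno-miR-20b-5p and rno-miR-494-3p are named after their values were seen. RefSeq held mature sequences for 685 of the 758 names. The array design names another assembly than GRCr8, and coordinates are those of RefSeq.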

Additional observations from a re-analysis of the deposited data

How the results depend on the processing

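No member passed the cutoff of 0.025 under any alternative that gave it a value, which were 18 for rno-miR-199a-3p and rno-miR-214-3p, 17 for rno-miR-199a-5p and rno-miR-210-3p (neither is in the fit over microRNAs detected on all arrays) and 12 for rno-miR-210-5p, and with limma the lowest unadjusted p of a member was 0.0310 (rno-miR-199a-5p without rat 1). Detection by spots well above background gave the same number of arrays for each member as the call of Feature Extraction. The log2 difference was -0.079 for rno-miR-210-5p and -0.086 for rno-miR-199a-5p in the authors' table, where both turned sign, and 0.34 for rno-miR-214-3p without normalization between arrays. With 1 rat left out the range was -0.070 to 0.31 for rno-miR-199a-3p (negative without rat 3), 0.12 to 0.47 for rno-miR-199a-5p, -0.64 to -0.13 for rno-miR-210-3p, -0.17 to -0.027 for rno-miR-214-3p and 0.062 for rno-miR-210-5p, which had no value without rat 3, with a floor of 5, with outlier spots kept, with the total gene signal or in the fits over microRNAs detected on all arrays or on at least 1. Without the rat as a replicate block in place of the pairing, the difference of rno-miR-199a-3p was 0.15 and no call among the members changed. In the other alternatives rno-miR-199a-3p ranged from 0.0089 to 0.46 and rno-miR-210-3p from -1.61 to -0.016.

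The number of members with 1 sign in all rats, 0 in the main setting, was 1 with the 75th percentile over detected microRNAs (rno-miR-210-3p), 2 in the authors' table (rno-miR-210-3p and rno-miR-210-5p) and 1 to 2 with a rat left out. For the list of 19 this number, 1 in the main setting, was 4 with the 75th percentile over detected microRNAs, 0 over all microRNAs, 0 without normalization, 5 in the authors' table, 2 with the total gene signal, 3 with outlier spots kept, 3 with the median over spots and 3 to 7 with a rat left out. The share over all microRNAs is not given for these settings, and 1 sign is reached more easily with fewer rats. These counts are therefore not read as a result about the members or the list. The list had 1 microRNA past the cutoff with normexp (rno-miR-17-5p) and 0 to 1 with a rat left out (rno-miR-23b-3p without rat 1, rno-miR-20b-5p without rat 3). Without normalization between arrays its median was 0.38 and the erythrocyte sum differed by 0.44, beside the shift of 0.40 in all detected microRNAs. With a rat left out its median ranged from -0.15 to 0.069 and the erythrocyte sum from -0.17 to 0.12.

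Over all microRNAs the count past the cutoff, 6 in the main setting, was 12 in the authors' table, 13 with normexp, 13 with a floor of 0.1, 10 with the median over spots, 3 with the total gene signal, 2 with a floor of 5, 3 among those detected on all arrays, and 33, 19 and 17 without rat 1, 2 and 3. Causes were not tested. Signal limits these results, since rno-miR-210-5p and most readings of rno-miR-210-3p and rno-miR-199a-5p lie at or near background.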

Other observations

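The deposited table of normalized intensities, made by the authors without subtracting background, holds intensities for every member on every array. rno-miR-210-5p, with no spot well above background, has values there of 36.8 to 47.7, and rno-miR-210-3p has 41.7 to 47.4, on columns whose medians are 38.5 to 42.3. rno-miR-199a-3p has 57.3 to 91.2 and rno-miR-214-3p 75.5 to 84.9 in that table.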
